A study of Mus musculus with 6 samples.

Results

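The genes described here are 40 genes of glucose breakdown and of the response to low oxygen, taken by name from a table of 51912 genes in B16F10, a pigmented mouse melanoma cell line. They were chosen for what they are known to do, but with earlier results of these data known. Among those results, replicate 2 of the wild-type libraries stood apart for Pdk1. All 40 reached 1 TPM (transcripts scaled by their length and by the library's total) in at least 3 libraries. All 40 were thus among the 12068 genes tested. The tested group was B16F10 with the genotype ANXA10-/- (A10KO, 3 libraries, numbered 1, 13 and 14). It was set against wild-type B16F10 (WT, 3 libraries, numbered 1, 2 and 3). No other allele or agent is named for either group. The labels do not say at what density or oxygen level the cells grew, or whether the A10KO numbers stand for clones or separate cultures. A p-value here covers library-to-library spread alone, and that spread may be technical. The series asked how ANXA10, an annexin, acts in the spread of melanoma through the kinase PKD1 and the ubiquitin ligase TRIM41.

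Glycolysis splits glucose into pyruvate in the cytosol and yields ATP without oxygen. Many tumour cells, melanoma cells among them, run it fast and export the product as lactate. When oxygen is low, prolyl hydroxylases no longer mark the alpha subunits of hypoxia-inducible factor (HIF) for destruction. HIF then pairs with ARNT, binds the core sequences ACGTG and GCGTG, and raises genes for glucose uptake, glycolysis, blood vessel growth and mitophagy.

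The cells were melanocytic by their markers. Tyr, Tyrp1, Dct, Pmel, Mlana, Mitf and Sox10 were all present and summed to between 9410 and 11254 TPM in A10KO and between 8913 and 10016 TPM in WT. The markers of leukocytes, keratinocytes and fibroblasts summed to at most 0.27, 0.29 and 3.13 TPM in A10KO and at most 0.23, 0.34 and 3.44 TPM in WT, with Tyrobp, Cd3e, Adgre1, Krt10, Epcam and Lum at 0 in every library. Endothelial markers summed to between 0.65 and 6.44 TPM in A10KO and between 6.0 and 9.06 TPM in WT, nearly all of it Vwf. Haemoglobin genes summed to at most 22.5 TPM in A10KO, reached in replicate 13, and at most 2.81 TPM in WT. Anxa10 was listed at 0 in all 6 libraries and gave no check of the labels. The depth is unknown, since TPM does not hold it. The share of mitochondrial transcripts was 7.93%, 14.7% and 7.37% in A10KO replicates 1, 13 and 14, against 6.56%, 6.48% and 6.32% in WT replicates 1, 2 and 3. In bulk RNA a change in the share of cells that express a gene and a change in RNA per cell cannot be told apart.

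None of the 40 genes passed the test between A10KO and WT, and the highest levels of most of them stood in a single wild-type library. Limma on log2(TPM + 1) called 0 of 40 at a Benjamini-Hochberg adjusted p under 0.05 over all genes, beside 0.0414% of all genes tested. The lowest adjusted p among the 40 was 0.505, for Ddit4. At an unadjusted p under 0.05 there were 3 of 40, or 7.5%, against 8.83% of all genes. Log2 changes (A10KO minus WT) were below 0 for 30 of the 40 and for 56.5% of all genes tested, with medians of -0.26 for the 40 and -0.04 for all genes. Without WT replicate 2 the median of the 40 was 0.00 and 20 of 40 were below 0. Since WT replicate 2 was the highest WT library for 37 of the 40, leaving it out had to raise the change of those genes. With 1 other library left out the median ran from -0.42 (without A10KO replicate 1) to -0.11 (without A10KO replicate 14). The median over the 40, on the log2(TPM + 1) scale and against the mean of WT, was -0.02, -0.26 and -0.39 in A10KO replicates 1, 13 and 14. Against the mean of WT replicates 1 and 3 alone it was 0.25, -0.04 and -0.14.

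**Figure D1:**
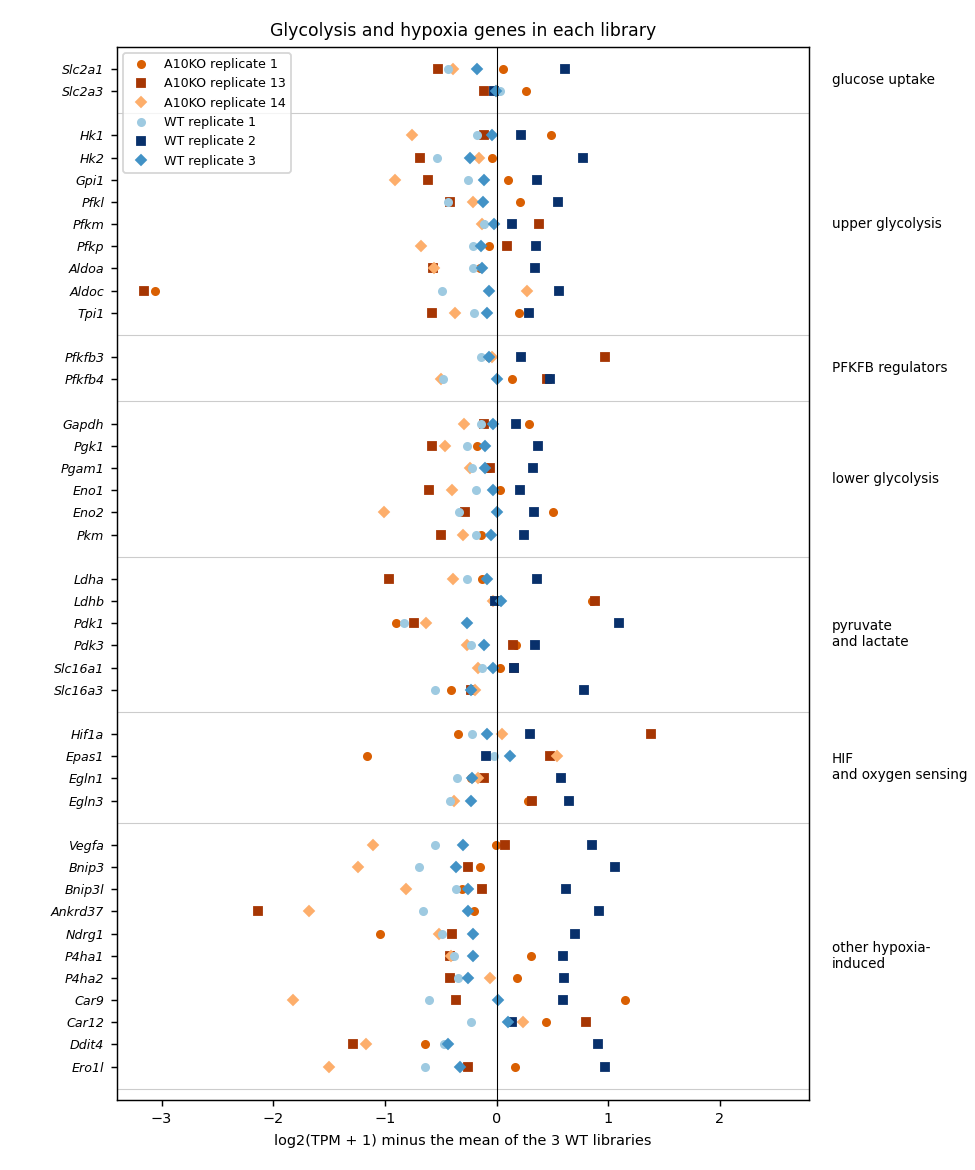
Level of each of the 40 genes in each library, as log2(TPM + 1) minus the mean of the 3 WT libraries, grouped by role; each symbol is 1 library. WT replicate 2 (dark blue squares) was the highest of the 6 libraries for 29 of 40 genes, and the A10KO libraries spread to both sides of WT replicates 1 and 3.

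WT replicate 2 was the highest of the 3 WT libraries for 37 of the 40 genes, against 53.0% of all genes tested. It was the highest of all 6 libraries for 29 of 40, against 24.0% of all genes. In 19 of 40, or 47.5%, it stood at least 1.5-fold above both other WT libraries, which was the case for 7.1% of all genes tested, and in 9 of 40 at least 2-fold, against 1.91%. The 1.5-fold limit was chosen after the values were seen, and Pdk1, which is among the 19, was known beforehand to stand apart in this library. In WT replicate 1 and in WT replicate 3 there were 0 of 40 such genes, against 1.14% and 1.28% of all genes. The order of WT replicate 1 lowest, WT replicate 3 between and WT replicate 2 highest held for 37 of 40, against 31.2% of all genes. WT replicate 2 also listed more genes at 1 TPM or above, 12236 against 11903 and 11940 in WT replicates 1 and 3, and the part of this in the result was not tested. The count of genes at least 1.5-fold higher in WT replicate 2, 19 of 40 as listed, changed little with scaling. It was 16 under trimmed-mean scaling, 17 under median-of-ratios scaling and 19 with mitochondrial transcripts removed. The shares of all genes under these settings are not given here.

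Glucose enters through Slc2a1 (GLUT1) and Slc2a3 (GLUT3), and both are facilitative transporters. Slc2a1 stood at 65.1, 43.2 and 47.5 TPM in A10KO replicates 1, 13 and 14, against 46.1, 96.1 and 55.3 TPM in WT replicates 1, 2 and 3. The groups overlapped, and WT replicate 2 was the highest of the 6. Slc2a3 ran from 11.6 to 15.4 TPM in A10KO and from 12.5 to 12.9 TPM in WT, with WT replicate 2 the lowest of its group. The share of Slc2a1 in the summed TPM of the pair was 79.6% ± 1.16 in A10KO and 82.7% ± 5.33 in WT (SD, n = 3 each).

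The upper steps of glycolysis trap glucose as a phosphate, commit it and cleave it. Hk2, the inducible hexokinase, stood at 77.9, 49.3 and 71.5 TPM in A10KO, against 55.1, 137.6 and 67.7 TPM in WT. WT replicate 2 was 2.03-fold above the higher of the other WT libraries, and the A10KO values lay around those of WT replicates 1 and 3. Hk1, the constitutive hexokinase, ran from 64.7 to 155 TPM in A10KO and from 97.9 to 129 TPM in WT. Aldoa, the main aldolase, had the highest mean of this role, with 3196, 2385 and 2403 TPM in A10KO and 3058, 4499 and 3241 TPM in WT. Its log2 change was -0.43 (SE 0.21, limma adjusted p = 0.605). Among the phosphofructokinase genes, which encode the committing step, Pfkl ran from 83.4 to 129 TPM in A10KO and from 82.5 to 164 TPM in WT. Pfkm ran from 40.3 to 58.1 TPM in A10KO and from 40.8 to 49.0 TPM in WT, and Pfkp from 112 to 192 TPM in A10KO and from 155 to 230 TPM in WT. The isomerase genes Gpi1 and Tpi1 ran from 565 to 1141 and from 1636 to 2811 TPM in A10KO, against 895 to 1373 and 2123 to 2990 TPM in WT. WT replicate 2 was the highest WT library in 9 of these 9 upper genes, by 1.5-fold or more in 3 (Hk2, Pfkl and Aldoc).

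Aldoc, the aldolase best known from brain, split the A10KO libraries. It stood at 0.90, 0.78 and 18.2 TPM in A10KO replicates 1, 13 and 14, against 10.3, 22.3 and 14.1 TPM in WT replicates 1, 2 and 3. A10KO replicates 1 and 13 lay below every WT library and A10KO replicate 14 lay among them, so that the groups overlapped. The log2 change was -1.98 (SE 0.87, limma adjusted p = 0.566), -3.11 without A10KO replicate 14 and -0.90 with array quality weights. Over the alternatives the adjusted p ran from 0.0868, without A10KO replicate 14, to 0.987. Aldoc lies on chromosome 11 (GRCm38, 78322968 to 78327781), where the median log2 difference of all tested genes from WT was -0.12, -0.05 and -0.15 in the 3 A10KO libraries.

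Pfkfb3 and Pfkfb4 make and remove fructose 2,6-bisphosphate, the activator of phosphofructokinase. Pfkfb3 stood at 5.20, 11.7 and 5.31 TPM in A10KO and 4.88, 6.53 and 5.17 TPM in WT. A10KO replicate 13 was the high library, and the others lay close together. Pfkfb4 was low throughout, from 1.96 to 4.69 TPM in A10KO and from 1.99 to 4.80 TPM in WT.

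The lower steps return ATP and end in pyruvate. Gapdh, often used as a loading standard, had the highest level of all 40, with 16706, 12643 and 11169 TPM in A10KO and 12365, 15374 and 13375 TPM in WT. The groups overlapped on both sides, and the log2 change of -0.04 (SE 0.23, limma adjusted p = 0.972) turned to 0.05 without WT replicate 2. Eno1 (enolase) ran from 2327 to 3607 TPM in A10KO and from 3108 to 4091 TPM in WT, and Pkm (pyruvate kinase) from 1811 to 2311 TPM in A10KO and from 2238 to 3020 TPM in WT. All 6 genes of this role had their highest WT value in WT replicate 2, at 1.15-fold (Gapdh) to 1.39-fold (Pgk1) over the next WT library, and 0 of 6 by 1.5-fold. Eno2, the neuronal enolase, ran from 11.7 to 35.0 TPM in A10KO and from 19.1 to 31.1 TPM in WT. The 15 genes of the upper and lower steps together took 3.40%, 2.51% and 2.42% of TPM in A10KO and 2.75%, 3.69% and 2.97% in WT.

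Near-identical copies of 2 of these genes were listed with TPM of their own. Pgk1 (phosphoglycerate kinase, chromosome X, 106187100 to 106203699) stood at 1789, 1352 and 1469 TPM in A10KO, against 1688, 2613 and 1881 TPM in WT. The listed gene Pgk1-rs7 on chromosome 12, whose transcript matched that of Pgk1 at 100% over 1255 bases, stood at 3.39, 465 and 0.97 TPM in A10KO, against 2.29, 57.2 and 15.02 TPM in WT. Reads of such copies cannot be told apart, and how they were divided is not given in the sources used here. With both of its copies added, Pgk1 came to 1794, 1819 and 1473 TPM in A10KO and 1691, 2673 and 1897 TPM in WT, which moved its log2 change to -0.28, against -0.41 as listed. A10KO replicate 13, the lowest library for Pgk1 as listed, was then the highest of its group. Pgam1 (phosphoglycerate mutase) ran from 908.5 to 1027 TPM in A10KO and from 921 to 1343 TPM in WT. It has a copy, Pgam1-ps2, at 121, 3.86 and 75.1 TPM in A10KO and 61.0, 127 and 69.98 TPM in WT, and with it added the log2 change was -0.14, against -0.12 as listed. For Gapdh, with 75 near-identical copies in the table, the copies together stayed within 0.489% of the sum in every library.

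Pyruvate goes either into the mitochondrion or to lactate. Pdk1, a kinase that shuts pyruvate dehydrogenase and a classic hypoxia-induced gene (chromosome 2, 71873224 to 71903858), stood at 12.01, 13.6 and 14.7 TPM in A10KO, against 12.7, 51.0 and 19.2 TPM in WT. WT replicate 2 was 2.65-fold above the next highest of all 6 libraries, whereas the A10KO libraries lay close to WT replicate 1. The log2 change was -0.76 (SE 0.44, limma adjusted p = 0.666) and it was -0.21 without WT replicate 2. Median log2 differences of chromosome 2 genes from WT were -0.44, 0.10 and 0.00 in the 3 A10KO libraries. Slc16a3 (MCT4), which exports lactate, stood at 84.4, 95.8 and 98.1 TPM in A10KO, against 76.6, 194.7 and 95.9 TPM in WT, again with WT replicate 2 apart. Its relative Slc16a1 (MCT1), which carries lactate either way, ran from 25.0 to 31.5 TPM in A10KO and from 25.7 to 31.6 TPM in WT, and Pdk3 from 32.03 to 43.8 TPM in A10KO and from 32.9 to 49.4 TPM in WT.

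The lactate dehydrogenase genes Ldhb and Ldha differed in pattern. Ldhb, whose subunit favours lactate use, stood at 673, 684 and 364 TPM in A10KO replicates 1, 13 and 14, against 366, 367 and 382 TPM in WT. A10KO replicates 1 and 13 lay above every WT library, and A10KO replicate 14 lay just below them, while WT replicate 2 did not stand apart. The log2 change was 0.57 (SE 0.24, limma adjusted p = 0.564), 0.87 without A10KO replicate 14 and 0.29 with array quality weights. Ldha, whose subunit favours lactate formation and which has the highest mean of this role, stood at 2125, 1196 and 1780 TPM in A10KO and 1934, 2987 and 2193 TPM in WT, with WT replicate 2 the highest of the 6. The share of Ldha in the summed TPM of the pair was 75.9%, 63.6% and 83.03% in A10KO, against 84.1%, 89.1% and 85.2% in WT. All A10KO libraries lay below all WT libraries in this share, by a mean of 11.9 percentage points (exact permutation test, two-sided p = 0.1, the smallest that 3 against 3 allows, and 0.764 adjusted over 14 families). The difference was -6.61 points without A10KO replicate 13 and -16.3 points without A10KO replicate 14. Ldha lies on chromosome 7, whose genes had median log2 differences from WT of -0.12, -0.31 and -0.11 in A10KO replicates 1, 13 and 14. With chromosome medians subtracted the log2 change of Ldha was -0.32, against -0.495 in the main fit. The part of this in the share was not tested.

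**Figure D2:**
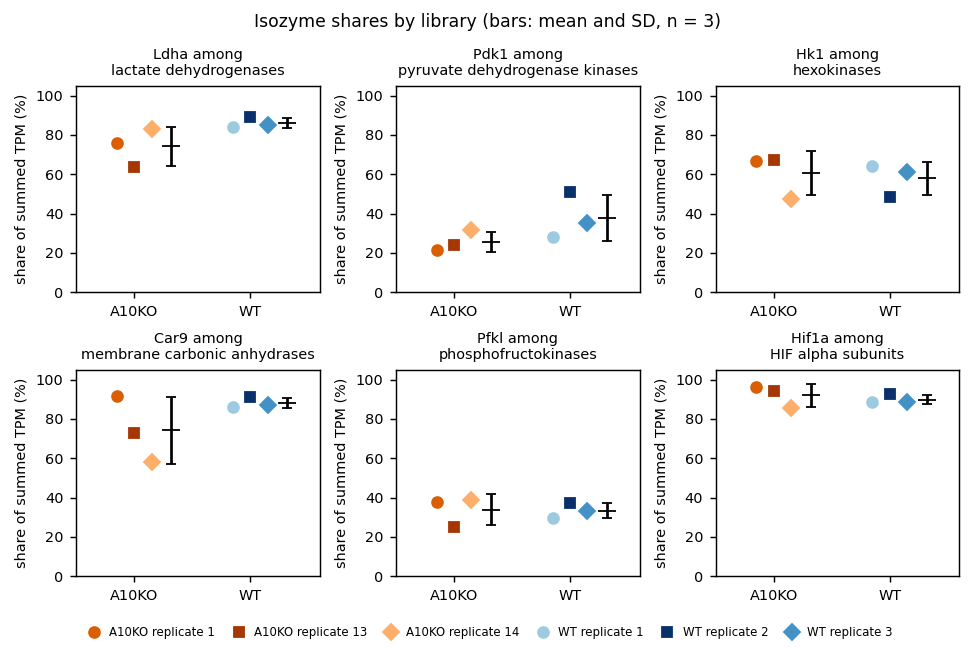
Share of 1 family member in the summed TPM of its family, in percent, for 6 of the 14 families; points are libraries, and bars give the mean and SD of 3. Ldha took 74.2% ± 9.83 in A10KO and 86.1% ± 2.62 in WT, the only one of the 14 families whose groups did not overlap.

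In the other 13 families the groups overlapped, and with 3 against 3 the exact test could pass none of the 14. Pdk1 took 25.6% ± 5.18 of the pair with Pdk3 in A10KO and 37.9% ± 11.7 in WT, where WT replicate 2 alone stood at 50.8%. That difference was -12.2 percentage points, and -5.79 without WT replicate 2. Car9 took 91.8%, 72.8% and 58.0% of the pair with Car12 in A10KO, against 86.0% to 91.0% in WT. Hk1 took 60.5% ± 11.3 of the hexokinase pair in A10KO and 57.9% ± 8.39 in WT. Within WT the shares of replicate 2 stood on either side of the others. They were the highest for Slc2a1 (88.5%), Bnip3 (76.7%, against 65.9% and 69.3%), Pfkl, Ldha, Hif1a, Car9 and Pdk1, which was known beforehand to stand apart. They were the lowest for Hk1 (48.3%), Slc16a1 (13.97%), Pfkfb3 (57.6%, against 71.0% and 61.9%), Aldoa, Eno1 and Egln1. For P4ha1 the share (35.9%) lay between the others.

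Among oxygen sensors and HIF subunits, the A10KO libraries lay far apart for Hif1a and Epas1 and close together for Egln1. Hif1a, which encodes the widely expressed HIF alpha subunit (chromosome 12, 73901375 to 73947530), stood at 20.8, 71.1 and 27.6 TPM in A10KO, against 22.7, 33.0 and 25.0 TPM in WT. A10KO replicate 13 was 2.98 times the mean of WT replicates 1 and 3, whereas the other A10KO libraries lay near WT. The log2 change was 0.36 (SE 0.42, limma adjusted p = 0.821), and -0.15 without A10KO replicate 13. Chromosome 12 genes had median log2 differences from WT of -0.40, 0.13 and 0.00 in A10KO replicates 1, 13 and 14. Epas1 (HIF-2 alpha) was low, at 0.77, 4.50 and 4.73 TPM in A10KO and 2.87, 2.70 and 3.29 TPM in WT, with A10KO replicate 1 the lowest. The prolyl hydroxylase genes Egln1 and Egln3 are themselves raised by HIF. Egln1 had the highest mean of this role, with 42.0, 45.9 and 43.9 TPM in A10KO and 38.6, 74.4 and 42.4 TPM in WT, and Egln3 stood at 7.86, 8.12 and 4.61 TPM in A10KO and 4.48, 10.5 and 5.22 TPM in WT. For both, WT replicate 2 was the highest of all 6 libraries. For Hif1a mRNA it was the highest WT library, by 1.32-fold over the next, and only A10KO replicate 13 lay above it.

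Pdk1 had the largest ratio of WT replicate 2 to the mean of the other WT libraries among the 40, 3.19, and the other 11 hypoxia-induced genes held the next 5. For Pdk1 this step was known beforehand. In 10 of the 11 WT replicate 2 stood at least 1.5-fold above both other WT libraries, and in 9 of 11 it was the highest of all 6. Bnip3, a mitophagy receptor (chromosome 7, 138890836 to 138909519), stood at 110, 102 and 51.2 TPM in A10KO, against 74.9, 256 and 94.4 TPM in WT. WT replicate 2 was 2.71-fold above the next WT library, and A10KO replicate 14 was the lowest of the 6. Its relative Bnip3l stood at 40.4, 45.7 and 28.2 TPM in A10KO and 38.8, 77.8 and 41.8 TPM in WT. Ero1l, an oxidase that helps proteins form disulfide bonds, stood at 135, 101 and 42.0 TPM in A10KO, against 77.1, 237.9 and 95.7 TPM in WT. Vegfa, the growth factor for blood vessels, stood at 59.3, 62.6 and 27.1 TPM in A10KO, against 40.3, 108 and 48.1 TPM in WT. In all 4 of these genes WT replicate 2 was the highest library and A10KO replicate 14 the lowest.

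**Figure D3:**
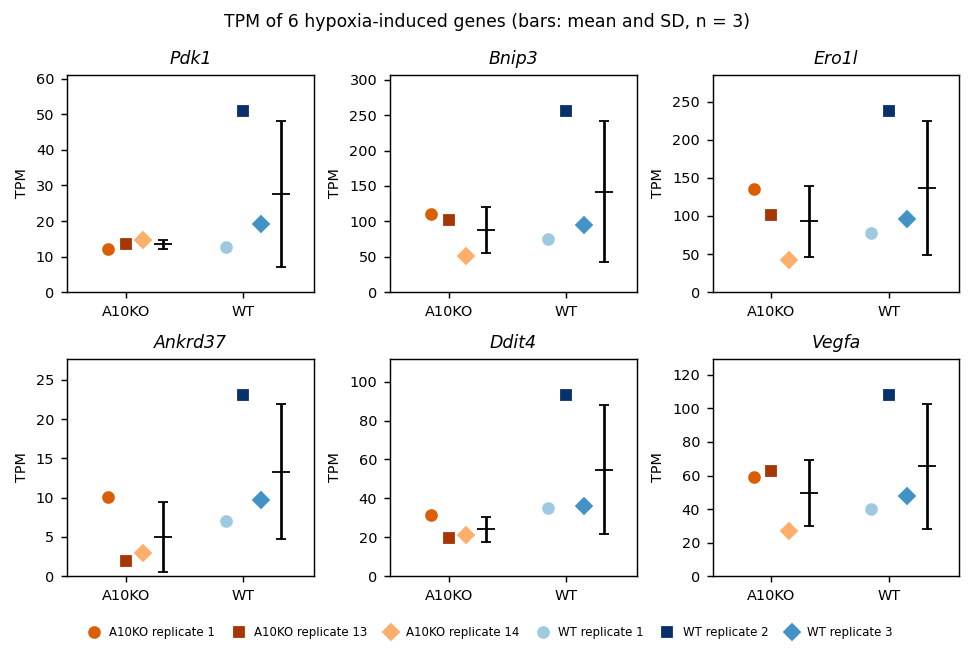
TPM of 6 hypoxia-induced genes in each library; points are libraries, and bars give the mean and SD of 3. Pdk1 was known beforehand to stand apart in WT replicate 2, and the other genes were picked for the largest steps in that library. Its place as the highest point in each panel thus came with the choice of genes. For Pdk1 it stands at 51.0 TPM, with the 5 other libraries between 12.01 and 19.2.

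Ddit4 was the one member whose A10KO libraries all lay below all WT libraries, and Car12 the one whose A10KO libraries all lay above. That is 1 of 40 in each direction, or 2.5%, beside 11.5% of all genes tested for lower and 5.61% for higher. The count of lower genes was 10 without A10KO replicate 1, beside 17.4% of all genes, and 7 without WT replicate 1, beside 15.9%. It was 3 without A10KO replicate 13 and 2 without A10KO replicate 14, beside 20.8% and 21.0% of all genes, and the count of higher genes was 2 without A10KO replicate 1, A10KO replicate 14 or WT replicate 2, beside 13.4%, 11.2% and 10.6% of all genes. Ddit4 (REDD1), which restrains mTORC1 (chromosome 10, 59949669 to 59951834), stood at 31.3, 19.6 and 21.4 TPM in A10KO, against 35.3, 93.2 and 36.1 TPM in WT. Its mean was 24.1 ± 6.30 TPM in A10KO and 54.8 ± 33.2 TPM in WT (SD, n = 3 each), with a log2 change of -1.03 (SE 0.38, limma adjusted p = 0.505), and -0.58 without WT replicate 2. The gap between A10KO replicate 1 and the lowest WT library was small, and most of the difference in means came from WT replicate 2. Car12, a membrane carbonic anhydrase, was low, at 2.90, 4.02 and 2.38 TPM in A10KO and 1.45, 2.16 and 2.08 TPM in WT (log2 change 0.49, SE 0.24, limma adjusted p = 0.604).

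Ankrd37 and Car9 ranged widely among the A10KO libraries. Ankrd37, an ankyrin repeat protein gene used as a hypoxia marker (chromosome 8, 45996902 to 46005707), stood at 10.1, 1.91 and 2.99 TPM in A10KO, against 7.09, 23.1 and 9.68 TPM in WT. A10KO replicates 13 and 14 lay below every WT library, whereas A10KO replicate 1 lay above 2 of them. The log2 change was -1.34 (SE 0.57, limma adjusted p = 0.564). Ankrd37 overlaps Ufsp2 on the opposite strand, which stood at 37.0, 47.6 and 33.5 TPM in A10KO and 37.0, 52.8 and 40.4 TPM in WT. Without a stated strand setting, reads from bases that both genes cover cannot be told apart. Hk1, Pfkm, Pfkp, Aldoa, Tpi1, Gapdh and Car9 also overlap a gene averaging 1 TPM or more on the opposite strand. Pkm overlaps such a gene on the same strand. Car9, the tumour-associated carbonic anhydrase that acidifies the outside of hypoxic cells, stood at 32.6, 10.8 and 3.28 TPM in A10KO, against 8.91, 21.8 and 14.3 TPM in WT. The A10KO libraries lay on both sides of all WT libraries, with a 9.93-fold range. Ndrg1, a stress-induced gene of differentiation, stood at 31.8, 50.2 and 46.1 TPM in A10KO and 47.0, 108.9 and 57.1 TPM in WT. In Car9 and in Ndrg1 WT replicate 2 was the highest WT library, for Ndrg1 by 1.91-fold over the next. P4ha1, a collagen prolyl hydroxylase subunit, stood at 41.9, 25.0 and 25.1 TPM in A10KO, against 25.6, 51.4 and 28.9 TPM in WT. P4ha2, another such subunit, ran from 44.9 to 68.7 TPM in A10KO and from 47.3 to 91.8 TPM in WT.

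Among the A10KO libraries, replicate 1 was the highest for 22 of 40 genes, 7 of them in this group of 11, beside 24.0% of all genes. Replicates 1, 13 and 14 stood at least 1.5-fold above both others for 6, 2 and 1 of 40 genes, beside 4.4%, 13.8% and 4.43% of all genes tested. They stood at least 1.5-fold below both others for 1, 1 and 10 of 40, beside 8.0%, 7.83% and 5.25% of all genes, and 4 of the 10 in replicate 14 were in this group. Relative to the mean of WT replicates 1 and 3, the medians over the 11 genes were 0.42, -0.04 and -0.68 in A10KO replicates 1, 13 and 14 on the log2(TPM + 1) scale. The share of mitochondrial transcripts given above was highest in A10KO replicate 13, and its part in these values was not tested.

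The start regions of the genes with the largest steps in WT replicate 2 are shown because they hold, or lack, the core letters of the HIF binding sequence. Each line gives 250 bases before to 50 after a RefSeq start site (GRCm38.p6), 5′ to 3′ on the strand of the gene, and capitals mark ACGTG or GCGTG on either strand. The windows are chr2:71872974-71873273 (plus strand) for Pdk1, chr7:138909457-138909756 (minus) for Bnip3, chr14:45318523-45318822 (minus) for Ero1l, chr8:45999801-46000100 (minus) for Ankrd37, chr10:59951721-59952020 (minus) for Ddit4 and chr17:46032328-46032627 (minus) for Vegfa.
Pdk1: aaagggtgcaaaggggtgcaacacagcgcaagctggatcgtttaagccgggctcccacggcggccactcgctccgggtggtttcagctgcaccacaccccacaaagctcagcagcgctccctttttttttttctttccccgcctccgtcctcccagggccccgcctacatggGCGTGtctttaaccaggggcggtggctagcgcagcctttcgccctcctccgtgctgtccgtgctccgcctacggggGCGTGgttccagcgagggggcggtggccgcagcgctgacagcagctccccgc
Bnip3: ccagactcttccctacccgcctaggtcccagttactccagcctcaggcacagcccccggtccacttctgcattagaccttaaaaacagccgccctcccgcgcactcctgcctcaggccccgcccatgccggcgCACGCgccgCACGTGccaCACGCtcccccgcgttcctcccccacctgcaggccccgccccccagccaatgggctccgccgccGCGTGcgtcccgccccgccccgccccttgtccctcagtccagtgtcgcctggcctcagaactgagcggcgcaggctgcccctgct
Ero1l: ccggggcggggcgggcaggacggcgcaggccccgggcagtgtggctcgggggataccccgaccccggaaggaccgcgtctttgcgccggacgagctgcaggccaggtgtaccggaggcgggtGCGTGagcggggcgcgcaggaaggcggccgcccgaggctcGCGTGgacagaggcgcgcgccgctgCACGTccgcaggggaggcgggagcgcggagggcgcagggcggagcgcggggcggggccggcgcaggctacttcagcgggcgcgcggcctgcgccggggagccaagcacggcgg
Ankrd37: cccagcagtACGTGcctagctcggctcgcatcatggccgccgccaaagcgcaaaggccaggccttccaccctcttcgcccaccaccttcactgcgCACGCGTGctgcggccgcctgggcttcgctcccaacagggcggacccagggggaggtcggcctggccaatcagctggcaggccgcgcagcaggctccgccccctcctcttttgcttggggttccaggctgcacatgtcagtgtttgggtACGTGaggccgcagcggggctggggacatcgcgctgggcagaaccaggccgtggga
Ddit4: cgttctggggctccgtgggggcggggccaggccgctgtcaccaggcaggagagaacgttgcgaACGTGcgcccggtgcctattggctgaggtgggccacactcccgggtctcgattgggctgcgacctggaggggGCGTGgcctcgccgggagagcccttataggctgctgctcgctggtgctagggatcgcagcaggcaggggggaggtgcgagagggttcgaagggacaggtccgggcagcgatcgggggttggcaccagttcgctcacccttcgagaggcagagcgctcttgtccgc
Vegfa: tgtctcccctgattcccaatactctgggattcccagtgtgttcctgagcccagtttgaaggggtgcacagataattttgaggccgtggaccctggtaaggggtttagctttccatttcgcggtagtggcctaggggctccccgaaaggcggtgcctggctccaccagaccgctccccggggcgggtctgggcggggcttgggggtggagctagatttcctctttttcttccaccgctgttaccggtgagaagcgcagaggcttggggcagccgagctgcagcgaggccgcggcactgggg

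Pdk1 has 2 cores in this window (both GCGTG), Bnip3 5, Ero1l 3, Ankrd37 4 and Ddit4 2, counted by start position. The Vegfa window holds none of these letters, and its second listed window holds 2. The second listed window of Pdk1 (chr2:71874654-71874953) holds 0. RefSeq windows were found for 36 of the 40 genes (Ero1l under its current symbol Ero1a), 50 windows in all. Of these, 80.0% held a core, against 63.1% of the 11452 windows of tested genes and 43.8% of all 32851 windows. ACGTG alone was in 58.0% of the 50 windows, against 26.0% of those of tested genes and 19.6% of all. The median number of CpG dinucleotides was 20.5 in the 50 windows and 21.0 in those of tested genes. These are matches of letters in a short window, counted with no test. The 40 were chosen in part as genes of the response to low oxygen, so a higher share of cores may come with that choice. A link between the cores and the step in WT replicate 2 was not tested.

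Genes outside the 40 were taken from lists by pathway. Of 40 further hypoxia-induced genes 29 were tested, and 17 of them, or 58.6%, stood at least 1.5-fold higher in WT replicate 2 than in both other WT libraries, beside the 7.1% of all genes. The count was 17 under trimmed-mean and under median-of-ratios scaling too. Between A10KO and WT 0 of 29 passed the test, and the median log2 change was -0.18, or -0.06 without WT replicate 2. Ccng2, an unconventional cyclin, stood at 2.40, 4.16 and 3.81 TPM in A10KO, against 5.18, 19.2 and 8.77 TPM in WT. Mxi1, an antagonist of MYC, stood at 23.0, 17.8 and 17.7 TPM in A10KO, against 23.8, 46.4 and 26.2 TPM in WT. Zfp395 ran from 7.77 to 8.40 TPM in A10KO and from 10.2 to 20.4 TPM in WT. In these 3 genes the groups did not overlap, with A10KO below WT, which is 3 of 29 or 10.3%, beside 11.5% of all genes.

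The step in WT replicate 2 was counted in the same way in neighbouring pathways. Of the HIF partners and degradation machinery 0 of 13 tested stood 1.5-fold higher there, of the pentose phosphate pathway 0 of 7, and of pyruvate oxidation and the citric acid cycle 1 of 28, or 3.57%. Other isozymes and glucose transporters had 5 of 15, or 33.3%, beside 7.1% of all genes. None of these genes passed the test between A10KO and WT. The medians of the log2 change were 0.00, -0.19, 0.07 and -0.08 in the order given, and leaving out WT replicate 2 gave 0.03, -0.22, 0.08 and -0.09.

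**Figure D4:**
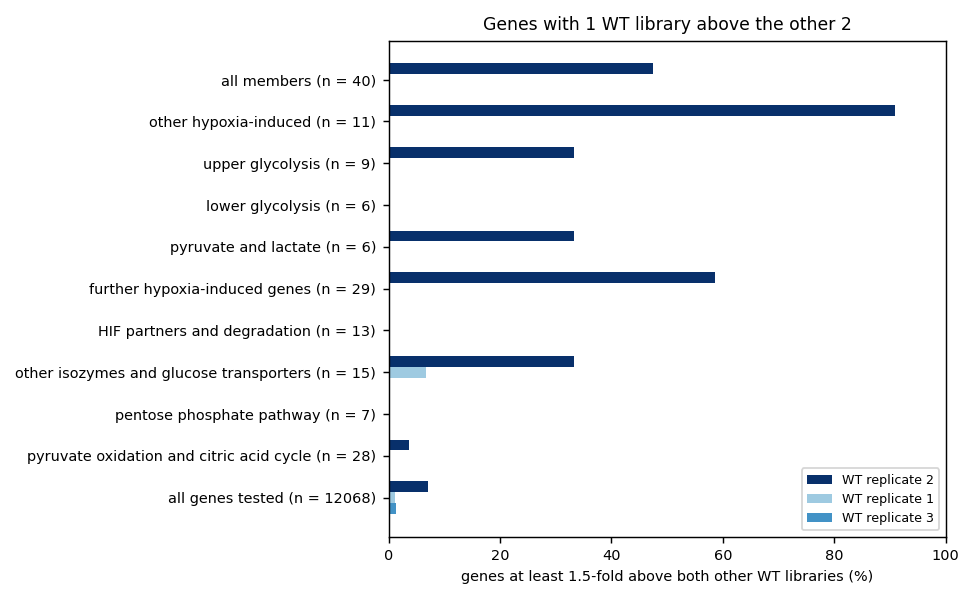
Share of genes, in percent, that stood at least 1.5-fold above both other WT libraries, for each WT library (bars) and for roles among the 40 genes, pathway lists and all genes tested, with the number of genes beside each name. WT replicate 2 reached 90.9% of the 11 other hypoxia-induced genes and 58.6% of the further hypoxia-induced genes, against 7.1% of all genes.

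Groups that did not overlap were counted in these lists too, with none passing the test. Among HIF partners 2 of 13 were higher in A10KO and 1 lower, among other isozymes and transporters 2 of 15 higher and 2 lower, in the pentose phosphate pathway 0 of 7 higher and 2 lower, and in pyruvate oxidation and the citric acid cycle 1 of 28 higher and 1 lower. Of all genes, 5.61% were higher and 11.5% lower. Slc2a12 (GLUT12), a glucose transporter, stood at 68.2, 60.6 and 53.4 TPM in A10KO, against 16.9, 29.6 and 11.1 TPM in WT, with means of 60.7 ± 7.39 and 19.2 ± 9.44 TPM (SD, n = 3 each). All A10KO libraries lay above all WT libraries by a wide margin, and the log2 change was 1.71 (SE 0.31, limma adjusted p = 0.189). The transporter Slc2a8 stood at 7.11, 7.52 and 7.22 TPM in A10KO, against 10.2, 21.1 and 9.98 TPM in WT. Its means were 7.28 ± 0.212 and 13.8 ± 6.38 TPM, and WT replicate 2 was 2.075-fold above the next WT library. Slc2a5 was at 24.3 ± 4.69 TPM in A10KO and 36.6 ± 4.76 TPM in WT. In the pentose phosphate pathway Pgls, a lactonase, was at 146 ± 36.2 TPM in A10KO and 201 ± 4.67 in WT, and G6pdx, its first enzyme, at 61.4 ± 5.32 in A10KO and 75.7 ± 2.81 in WT. Mpc1, a subunit of the mitochondrial pyruvate carrier, was at 162 ± 41.8 TPM in A10KO and 117 ± 5.89 in WT, and Sdha, a subunit of succinate dehydrogenase, at 130 ± 7.54 in A10KO and 147 ± 3.36 in WT. Among HIF regulators, Hif1an, the asparagine hydroxylase that blocks HIF, ran from 11.2 to 14.95 TPM in A10KO and from 9.45 to 10.6 TPM in WT, and Eloc, part of the VHL complex, from 146 to 208 TPM in A10KO and from 219 to 249 TPM in WT. The limma adjusted p of these 8 genes, other than Slc2a12, ran from 0.426 to 0.672.

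**Figure D5:**
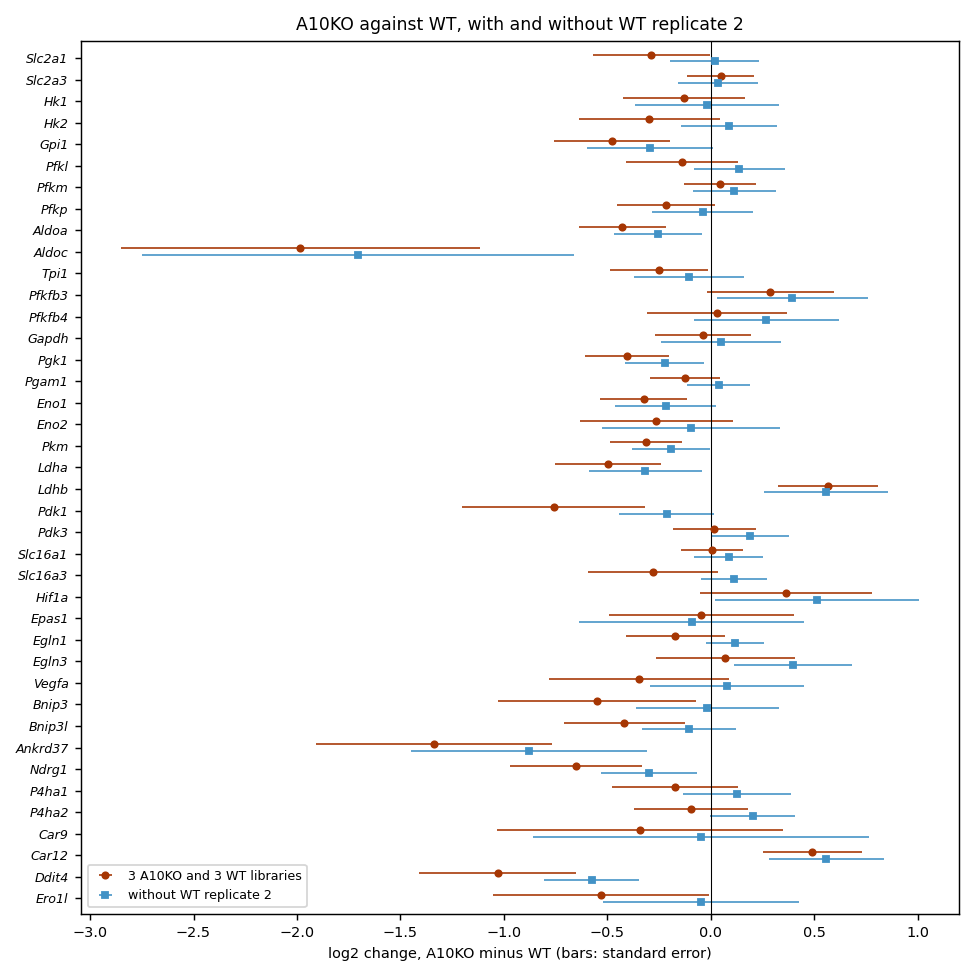
Log2 change of each of the 40 genes, A10KO minus WT, from limma with all 6 libraries (circles) and without WT replicate 2 (squares); bars are standard errors. The median over the 40 genes was -0.26 with all libraries and 0.00 without WT replicate 2, and 0 genes passed an adjusted p of 0.05 in either fit.

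Leaving out WT replicate 2 had to move most those genes in which it stood farthest above the other WT libraries, such as Pdk1. Bnip3 went to a log2 change of -0.02, against -0.55 with all libraries, Ero1l to -0.05 against -0.53, Slc16a3 to 0.11 against -0.28 and Hk2 to 0.09 against -0.30. Aldoc at -1.71, Ankrd37 at -0.88 and Ddit4 at -0.58 stayed farthest below 0, and Ldhb at 0.56 and Car12 at 0.56 farthest above. The lowest adjusted p among the 40 was then 0.938. Without WT replicate 2 the groups did not overlap for Pfkfb3 and Car12, higher in A10KO (2 of 40, beside 10.6% of all genes). The same held for Ddit4, lower in A10KO (1 of 40, beside 14.7% of all genes). For Pfkfb3 the gap was slight, with 5.20 TPM in A10KO replicate 1 against 5.17 TPM in WT replicate 3, and Car12 was low throughout.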

How the data were processed

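RNA-seq of 3 A10KO and 3 WT libraries was used as the authors deposited it, in TPM, 1 value per gene and library. The table is presented as raw counts, but its values carry decimals and its columns sum to between 969834 and 985045. The table of a single library matched its column in 6 of 6 cases. The tools named, per the submitters' processing notes, are fastp, HISAT and RSEM, with build GRCm38.p5. Tool versions and any strand setting: not given in the sources used here.

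The 12068 genes that reached 1 TPM in 3 or more libraries were tested with limma 3.58.1 (R 4.3.3), with a mean-variance trend, on log2(TPM + 1), with Benjamini-Hochberg adjustment over all of them and a threshold of 0.05. The log2 scale with a pseudocount of 1 understates the change of low genes. Isozyme shares were compared with exact permutation tests. The fit was tested on simulated data. Near-identical copies were found with blastn at 95% identity over 300 bases or more. Coordinates are from GENCODE M21 (GRCm38) and start regions from RefSeq (GRCm38.p6). The 40 genes, the lists and the tests were chosen with earlier results of these data known. Values in every library are given for genes called, genes averaging 1 TPM or more whose groups did not overlap, genes averaging 5 TPM or more with a 2-fold span in WT, and the gene with the highest mean of each role. From the lists, up to 3 genes each, averaging 5 TPM or more with no overlap, are named by size of change. Other genes were named after their values were seen.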

Additional observations from a re-analysis of the deposited data

How the results depend on the processing

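Under 14 other settings (pseudocount 0.1, no filter, a filter of 5 TPM, other scalings, array quality weights, chromosome medians subtracted, 1 library left out), 0 of the 40 genes were called by limma, with a lowest adjusted p of 0.0868. No paired analysis was possible because the groups share only replicate number 1. The count of all genes called was 5, 25 with array quality weights and 2 to 8 with 1 library left out. The median log2 change of the 40 was -0.26, ran from -0.28 to -0.14 under other pseudocounts, filters, scalings and weights, and from -0.42 to 0.001 with 1 library left out, the higher end without WT replicate 2. Counts of genes whose groups did not overlap were 0 higher with a filter of 5 TPM, which left Car12 out. With 1 library left out they were 1 to 2 higher and 1 to 10 lower.

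The sign of the log2 change was unstable for 23 genes, none of them called, and the cause was not tested. With 1 library left out it ran from -0.503 to 0.019 for Slc2a1, -0.059 to 0.13 for Slc2a3, -0.44 to 0.19 for Hk1, -0.56 to 0.09 for Hk2, -0.36 to 0.14 for Pfkl, -0.13 to 0.13 for Pfkm, -0.37 to 0.013 for Pfkp, -0.053 to 0.47 for Pfkfb3, -0.21 to 0.29 for Pfkfb4, -0.20 to 0.091 for Gapdh, -0.23 to 0.038 for Pgam1, -0.65 to 0.11 for Eno2, -0.10 to 0.19 for Pdk3, -0.068 to 0.092 for Slc16a1, -0.56 to 0.11 for Slc16a3, -0.15 to 0.72 for Hif1a, -0.34 to 0.51 for Epas1, -0.35 to 0.12 for Egln1, -0.14 to 0.40 for Egln3, -0.62 to 0.078 for Vegfa, -0.41 to 0.13 for P4ha1, -0.27 to 0.20 for P4ha2 and -1.09 to 0.40 for Car9. With array quality weights it was 0.047 for Hk2, 0.025 for Pfkl, -0.022 for Pfkm, -0.12 for Pfkfb4, -0.031 for Slc16a1, 0.035 for Epas1, 0.027 for Egln1 and 0.18 for P4ha2. With chromosome medians subtracted it was -0.053 for Pfkfb4 and 0.014 for P4ha2. For Gapdh it was 0.015 under trimmed-mean scaling, 0.016 under median-of-ratios scaling and 0.03 with mitochondrial transcripts removed.

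Differences in isozyme share, in percentage points with 1 library left out, ran from -16.3 to -6.61 for Ldha, -17.2 to -5.79 for Pdk1, -2.11 to 9.18 for Hk1, -1.85 to 5.02 for Pfkl, -0.215 to 0.045 for Eno1, -0.245 to 5.33 for Slc16a1, -0.168 to 5.37 for Hif1a, -4.11 to 1.29 for Bnip3 and -2.79 to 0.97 for P4ha1. Depth is unknown, so no counting error is given.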
